A study of Mus musculus with 4 samples.

Results

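Chemokines are small secreted proteins that draw leukocytes to a tissue, and 8 of their genes were examined here in mouse quadriceps, the large muscle of the front of the thigh. The 8 were taken by gene symbol from the deposited table, which held 18091 rows: Cxcl1, Cxcl9, Cxcl10, Ccl2, Ccl7 and Ccl11 as inducible chemokines, and Cxcl12 and Cxcl14 as homeostatic ones. Cxcl1 was chosen by its log2 values on these same 4 arrays, being higher in transgenic muscle, so its difference is given as a description with no test. The samples were 2 Lin28A Tg males, which carry a Lin28A transgene, and 2 WT males. All 4 mice were of the CD-1 strain and 5 weeks old, and no other treatment is named. The labels do not state which promoter drives the transgene, whether it is active in muscle, or whether the mice were littermates. Each mouse gave 1 Illumina Ref-8 bead array, on which biotin-labelled cRNA is read as a fluorescence intensity per probe.

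Chemokines signal through G protein-coupled receptors on leukocytes, and they are named CXC or CC after the spacing of their first cysteines. Inducible chemokines are made at low levels until a tissue is injured or inflamed: inflammatory cytokines acting through the transcription factor NF-kappa-B drive Cxcl1 and Ccl2, and interferon-gamma drives Cxcl9 and Cxcl10. Homeostatic chemokines such as Cxcl12 are made continuously, by stromal and vascular cells among others, and place resident and progenitor cells. In muscle, inducible chemokines are known for the recruitment of neutrophils and monocytes after damage, and muscle fibres, fibroblasts, endothelial cells and macrophages can all make some of them.

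A gene was counted as above background on an array when its deposited intensity exceeded 90.28, a level set from the bulk of dim genes, and it was tested when it did so on at least 2 of the 4 arrays. This left 7779 genes, 5 of the 8 chemokine genes among them. The limma fit, adjusted by the Benjamini-Hochberg method over all 7779 genes, called 0 of them at an adjusted p under 0.05 (0%), the smallest adjusted p being 0.356. At an unadjusted p under 0.05, 394 genes (5.06%) were higher and 299 (3.84%) lower in Lin28A Tg muscle. The median log2 fold change of all genes tested was 0.01. All 12 skeletal muscle markers examined, such as Acta1 and Ckm, were above background. The Lin28a probe was below 90.28 on all 4 arrays, at 86.42 and 87.96 in Lin28A Tg and 82.94 and 82.56 in WT muscle, so it checks neither the labels nor transgene expression. WT replicate 1 stood apart: the intensity above the background mode of 84.93, summed over the 6 hepatocyte markers tested, was 231.3 and 496.1 in Lin28A Tg, 9332 in WT replicate 1 and 263.1 in WT replicate 2, and the values of the 5 tested chemokine genes are also given without that array. The labels do not say whether the samples came from separate litters, and the p-values below rest on the spread among these 4 samples alone.

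Of the 5 chemokine genes above background, the 3 inducible ones, Cxcl1, Cxcl9 and Ccl11, were higher on both Lin28A Tg arrays than on both WT arrays, and the 2 homeostatic ones, Cxcl12 and Cxcl14, were lower; after median centring of the arrays Ccl11 overlapped, leaving 2 higher and 2 lower. Over all genes tested, 21.8% lay higher without overlap and 16.7% lay lower without overlap. The members were chosen with these values known, so the separation of all 5 on the deposited scale is a description of the set. Only Cxcl1 and Cxcl14 had a gap between the groups of more than a few hundredths of a log2 unit. The nearest Lin28A Tg and WT arrays were 1.04 log2 units apart for Cxcl1 and -0.40 for Cxcl14 (Lin28A Tg minus WT), against 0.05 for Cxcl9, -0.04 for Cxcl12 and 0.01 for Ccl11.

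**Figure D1:**
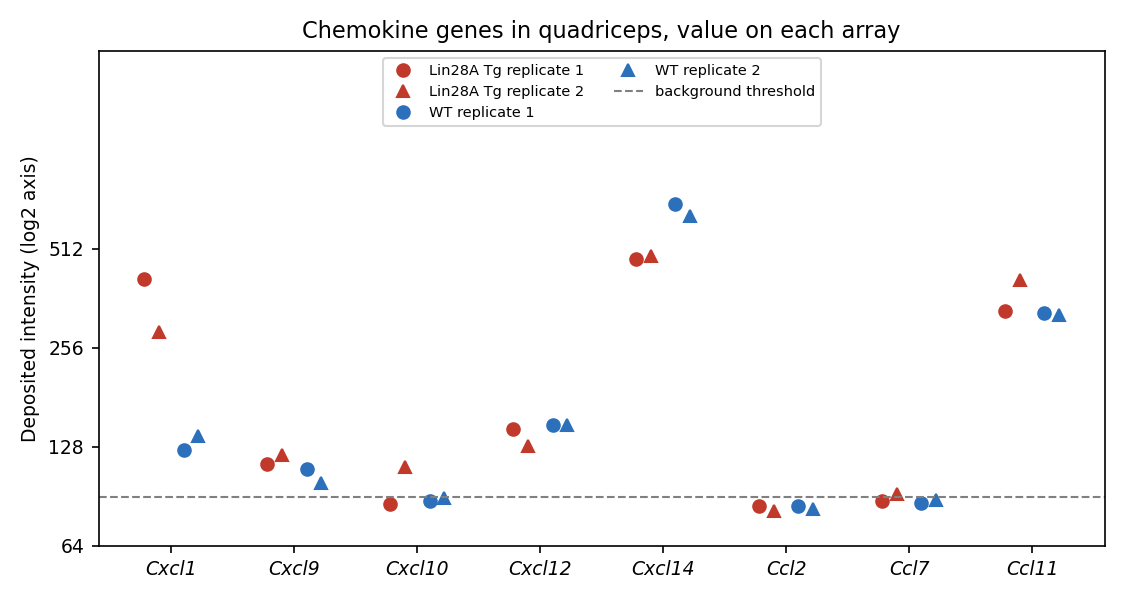
Deposited intensity of the 8 chemokine genes on each array, on a log2 axis, with Lin28A Tg in red left of WT in blue, replicate 1 as circles and replicate 2 as triangles, and the background threshold of 90.28 as a dashed line. Cxcl1 and Cxcl14 show a wide gap between the groups in opposite directions, and Ccl2 lies below the threshold on all 4 arrays.

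Cxcl1 encodes a chemokine that attracts neutrophils through the receptor Cxcr2. Its intensity was 414.6 and 284.9 in Lin28A Tg muscle, against 125 and 138.1 in WT muscle. Both Lin28A Tg values were above either WT value by a wide margin, and the Lin28A Tg pair was the more widely spread, the higher array being 1.46 times the lower, against 1.1 times in WT. The means were 349.7 ± 91.7 in Lin28A Tg and 131.5 ± 9.26 in WT muscle (SD, n = 2 each). The log2 fold change, taken between means of log2 values, was 1.39 (SE 0.20), a 2.62-fold difference. Only 8 of the 7779 genes tested, Cxcl1 included, had a log2 fold change as high or higher. With any 1 array left out the log2 fold change ran from 1.12 to 1.66, and it was 1.32 without WT replicate 1. Background was not subtracted from the deposited values, which shrinks folds of dim genes: after normexp background correction with an offset of 16 the log2 fold change was 2.00. In whole muscle, more cells that make Cxcl1 and more Cxcl1 mRNA per cell cannot be told apart, and the same holds for every gene below.

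Promoter windows are shown for Cxcl1 and Cxcl14, with the widest gaps between the groups, and for Cxcl10, an inducible member near background. Each runs from 250 bases before to 50 bases after an annotated start, 5′ to 3′ on the gene's strand, from RefSeq on GRCm38.p6, and capitals mark matches to the NF-kappa-B consensus on either strand. The Cxcl1 window is chr5:90890995-90891294 on the plus strand, the Cxcl10 window chr5:92348840-92349139 on the minus strand and the Cxcl14 window chr13:56296502-56296801 on the minus strand. The Cxcl14 window lies inside the annotated span of the gene, so sequence before its outermost start is not shown.
Cxcl1: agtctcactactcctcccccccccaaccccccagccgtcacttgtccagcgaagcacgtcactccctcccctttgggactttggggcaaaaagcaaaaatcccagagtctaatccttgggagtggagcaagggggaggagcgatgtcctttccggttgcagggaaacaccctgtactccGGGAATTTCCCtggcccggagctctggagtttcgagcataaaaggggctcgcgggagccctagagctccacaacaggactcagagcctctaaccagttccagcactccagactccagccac
Cxcl10: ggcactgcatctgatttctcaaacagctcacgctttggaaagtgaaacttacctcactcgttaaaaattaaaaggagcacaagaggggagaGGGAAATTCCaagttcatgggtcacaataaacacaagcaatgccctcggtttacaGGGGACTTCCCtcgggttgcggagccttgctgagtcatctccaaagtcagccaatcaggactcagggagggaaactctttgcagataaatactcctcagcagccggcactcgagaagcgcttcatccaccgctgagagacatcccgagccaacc
Cxcl14: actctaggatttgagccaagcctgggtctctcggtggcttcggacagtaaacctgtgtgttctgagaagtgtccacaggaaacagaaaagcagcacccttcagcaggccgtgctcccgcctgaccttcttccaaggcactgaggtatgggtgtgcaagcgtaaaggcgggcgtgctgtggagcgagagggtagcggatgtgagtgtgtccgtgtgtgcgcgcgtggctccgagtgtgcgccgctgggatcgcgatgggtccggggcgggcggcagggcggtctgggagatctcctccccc
The Cxcl1 window held 2 overlapping matches, the first beginning 71 bases before the start. The Cxcl10 window held 3, of which 2 overlap, beginning 159, 104 and 103 bases before the start. The windows of Cxcl14, Cxcl9 and Cxcl12 held none, and 8.46% of all 32851 promoter windows of this length held at least 1. Of 3 other motifs searched on both strands, the AP-1 motif TGANTCA (in 7.81% of windows) was in the windows of Cxcl9 and Cxcl10. The interferon-stimulated response element (ISRE) consensus (3.44%) was in those of Cxcl10 and Cxcl14, and the interferon-gamma-activated site TTCNNNGAA (8.3%) was in that of Cxcl14. Cxcl12 had none of the 4. A match is a stretch of letters and says nothing on its own about binding. Windows were found for 5 of the 8 genes.

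Cxcl14 encodes a chemokine made continuously by epithelial and stromal cells of many tissues. Its intensity was 477.9 and 487.1 in Lin28A Tg muscle, against 699.7 and 644.3 in WT muscle. The Lin28A Tg pair was close together, its higher array 1.02 times the lower, and both lay well under either WT array. The means were 482.5 ± 6.51 in Lin28A Tg and 672 ± 39.1 in WT muscle (SD, n = 2 each). The log2 fold change, taken between means of log2 values, was -0.48 (SE 0.07, 95% interval -0.66 to -0.29), a fold of 0.719. The unadjusted p was 0.00182 and the adjusted p over all genes 0.486 with limma, so the difference did not pass the test. The members were chosen with earlier results of these data known, so this interval and unadjusted p are not those of a gene chosen beforehand. Cxcl14 was among the 73 lowest log2 fold changes of the genes tested, and 39 of those 73 had groups that did not overlap. Of all genes tested, 16.7% lay lower without overlap, but the 73 were picked by their fold change. The log2 fold change of Cxcl14 ran from -0.54 to -0.42 with any 1 array left out, -0.42 being the value without WT replicate 1.

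Cxcl12 encodes the ligand of Cxcr4, which holds haematopoietic and muscle progenitor cells in place. Its intensity was 144.7 and 128.8 in Lin28A Tg muscle, against 148.9 and 149.3 in WT muscle. The WT arrays were nearly equal, and Lin28A Tg replicate 1 lay just under them. The log2 fold change was -0.13 (SE 0.08, 95% interval -0.34 to 0.09) with a limma adjusted p of 0.742, not past the test. It was -0.21 without Lin28A Tg replicate 1, -0.04 without Lin28A Tg replicate 2 and still -0.13 without WT replicate 1. Of all genes tested, 71.7% had a smaller difference in either direction.

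**Figure D2:**
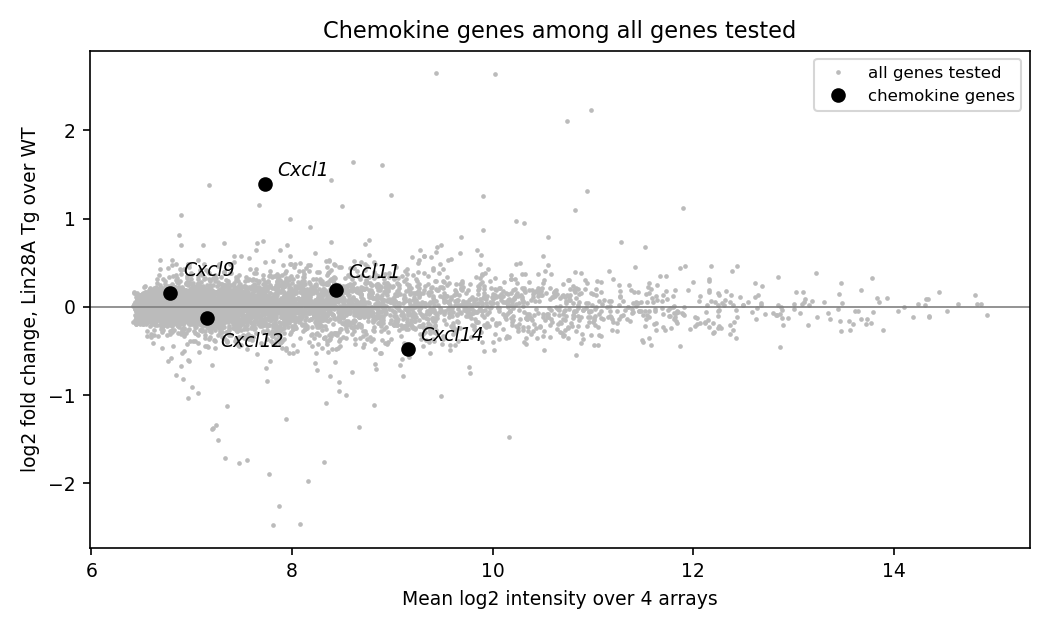
Each grey point is 1 of the 7779 genes tested, with its mean log2 intensity over the 4 arrays on the horizontal axis and its log2 fold change of Lin28A Tg over WT on the vertical axis; black points are the 5 chemokine genes above background. Cxcl1 at 1.39 and Cxcl14 at -0.48 lie outside the main cloud, and Cxcl9, Cxcl12 and Ccl11 lie inside it.

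Cxcl9 and Cxcl10 attract T cells and natural killer cells through Cxcr3. Cxcl9 was close to background on every array, at 113.4 and 120.4 in Lin28A Tg muscle against 109.6 and 99.54 in WT muscle. Its log2 fold change was 0.16 (SE 0.08, 95% interval -0.05 to 0.37), with a limma adjusted p of 0.672, not past the test. It was 0.09 without WT replicate 2 and 0.23 without WT replicate 1. After normexp with an offset of 16 it was at 0.36, still at an adjusted p above 0.05. Cxcl10 was at 85.65 and 111.4 in Lin28A Tg muscle and 87.58 and 89.27 in WT muscle. It was above background on Lin28A Tg replicate 2 alone, so it was not tested and no fold is given. That array was not the one with the higher Cxcl1.

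The CC chemokine genes Ccl2, Ccl7 and Ccl11 are direct neighbours among the protein-coding genes of chromosome 11, and of these only Ccl11 was above background on more than 1 array. Ccl2, which attracts monocytes through Ccr2, was below background on all 4 arrays, at 84.66 and 81.69 in Lin28A Tg and 84.39 and 82.46 in WT muscle. Ccl7, which acts on monocytes through the same receptor and others, was at 87.24 and 91.88 in Lin28A Tg and 86.46 and 88.13 in WT muscle. It was above background on Lin28A Tg replicate 2 alone. A difference of either gene was not detectable at these intensities. Ccl11, or eotaxin, attracts eosinophils through Ccr3. It was at 330.2 and 412.7 in Lin28A Tg muscle, against 327.2 and 321.2 in WT muscle. Lin28A Tg replicate 2 was high, and Lin28A Tg replicate 1 lay within a few units of the WT pair. The log2 fold change was 0.19 (SE 0.12, 95% interval -0.15 to 0.52) with a limma adjusted p of 0.753, not past the test. It was 0.03 without Lin28A Tg replicate 2 and 0.35 without Lin28A Tg replicate 1, so the value rested on 1 array of that pair, and 0.20 without WT replicate 1.

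**Figure D3:**
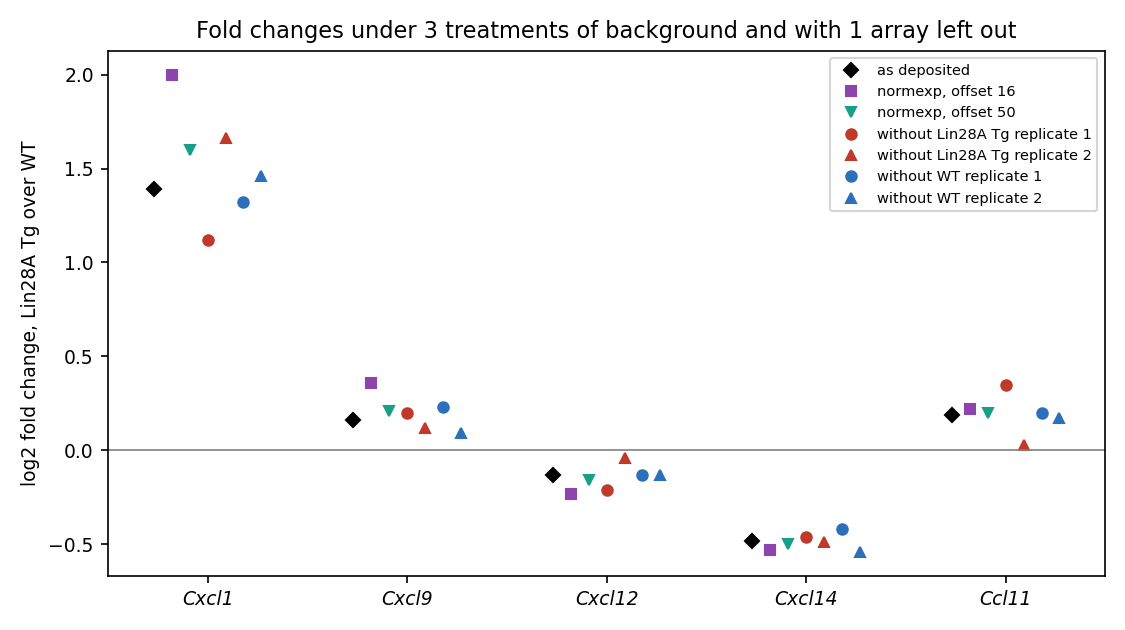
log2 fold change of Lin28A Tg over WT for the 5 chemokine genes above background, from the deposited values (diamond), after normexp background correction with offsets of 16 and 50, and with each array left out. Cxcl1 stays between 1.12 and 2.00 and Cxcl14 between -0.54 and -0.42, whereas Ccl11 reaches 0.03 and Cxcl12 reaches -0.04 when Lin28A Tg replicate 2 is left out.

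Most other chemokine genes were at background in these muscles. Of 30 others listed, 26 were in the table, 8 were tested and 15 were below background on all 4 arrays, among them Cxcl2 and Cxcl3, which share the receptor Cxcr2 with Cxcl1. Cxcl2 was at 76.61 and 83.95 in Lin28A Tg and 85.18 and 88.32 in WT muscle. None of the 8 was called by limma, with 2 higher and 0 lower at an unadjusted p under 0.05. The median log2 fold change of the 8 was 0.01, and 3 were higher and 1 lower without overlap (2 lower after median centring). Over all genes tested these shares were 21.8% and 16.7%. Cxcl16, a membrane-bound chemokine and scavenger receptor, was at 141.9 and 127.7 in Lin28A Tg and 118.5 and 107.3 in WT muscle (log2 fold change 0.26, SE 0.09, adjusted p = 0.551 with limma). Ccl9, a chemokine of myeloid cells, was at 281.6 and 317.4 in Lin28A Tg and 247 and 258.7 in WT muscle (0.24, SE 0.08, adjusted p = 0.551 with limma), and at 0.16 without Lin28A Tg replicate 2. Ccl19, a ligand of Ccr7, was at 96.79 and 99.89 in Lin28A Tg and 103.5 and 115.1 in WT muscle (-0.15, SE 0.08; -0.07 without WT replicate 2 and -0.23 without WT replicate 1). The third gene higher without overlap, Ccl25, was within 2 units of the threshold on all 4 arrays.

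The Ccl21 genes, which encode another Ccr7 ligand of lymphatic vessels, are near-identical copies, so their probes may read one another's transcripts. They belonged to no list and were chosen on sight of their values, so their differences are given as a description with no test. Ccl21c was at 460 and 385.7 in Lin28A Tg and 306.2 and 310.6 in WT muscle (log2 fold change 0.45, SE 0.10). Ccl21b was at 414.8 and 240.9 in Lin28A Tg and 177.3 and 213.3 in WT muscle (0.70, SE 0.29). The log2 fold change of Ccl21b was 0.31 without Lin28A Tg replicate 1 and 1.09 without Lin28A Tg replicate 2. Both genes lay higher without overlap, as did 21.8% of all genes tested.

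The receptors were mostly at background as well. Of 23 receptor genes, 15 were below background on all 4 arrays, including Cxcr2, Ccr2, Ccr3 and Cxcr3, the receptors of the inducible members, and 4 were tested. None of the 4 was called, 0 had an unadjusted p under 0.05, and 0 had groups that did not overlap (1 after quantile normalization was applied again). Over all genes tested, 38.5% had groups that did not overlap in either direction. Ackr1, a decoy receptor of venular endothelium that binds Cxcl1 and Ccl2, was at 169 and 139.4 in Lin28A Tg and 135.6 and 145.3 in WT muscle. Its log2 fold change was 0.13 (SE 0.12), and -0.01 without Lin28A Tg replicate 1. Cxcr4, the receptor of Cxcl12, was at 90.34 and 92.15 in Lin28A Tg and 86.98 and 90.41 in WT muscle, at the edge of background. The decoy receptor Ackr2 had a log2 fold change of 0.01 and the chemerin-binding receptor Ccrl2 one of -0.01.

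**Figure D4:**
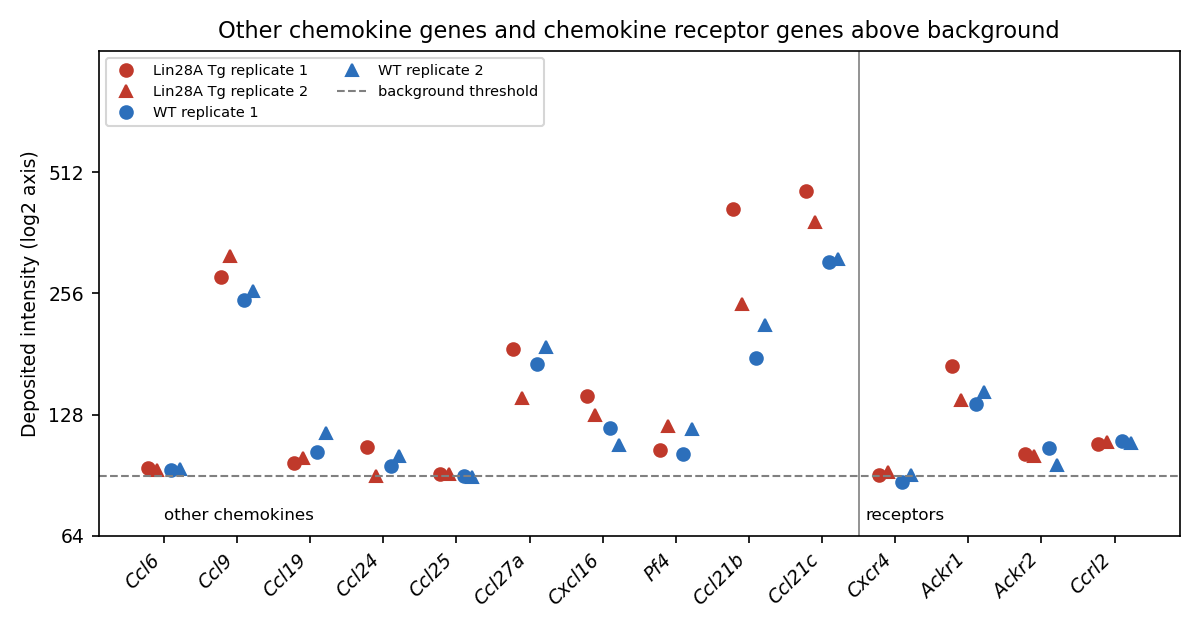
Deposited intensity, on a log2 axis, of the other chemokine genes above background (the 8 listed genes and the Ccl21 copies) and of the 4 chemokine receptor genes above background, with Lin28A Tg in red left of WT in blue and the threshold of 90.28 as a dashed line. Ccl21c, Cxcl16 and Ccl9 lie higher on both Lin28A Tg arrays, and the receptors overlap between the groups.

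Genes that respond to NF-kappa-B or to interferons, the inducers of Cxcl1, Cxcl9 and Cxcl10, included some that were higher and some that were lower without overlap, as did 21.8% and 16.7% of all genes tested. Of 20 NF-kappa-B response genes, 12 were tested, 3 were higher and 3 lower without overlap, and the median log2 fold change was 0.02. Ier3, a stress-response gene, was at 537.9 and 549.8 in Lin28A Tg and 306.3 and 357 in WT muscle (log2 fold change 0.72, SE 0.09). Nfkbia, the inhibitor of NF-kappa-B that the factor itself induces, was lower, at 146 and 150 in Lin28A Tg and 166.7 and 205.5 in WT muscle (-0.32, SE 0.12; -0.17 without WT replicate 2). Tnf was below background on all 4 arrays. Of 20 interferon-gamma response genes, 13 were tested, with 3 higher and 4 lower without overlap and a median of 0.00021. Cd74, the invariant chain of class II antigen presentation, was at 734.2 and 712.7 in Lin28A Tg and 517.1 and 510.6 in WT muscle (0.49, SE 0.06). The GTPase gene Irgm1 was at 302.5 and 271.7 in Lin28A Tg and 395.2 and 331.9 in WT muscle (-0.34, SE 0.12; -0.21 without WT replicate 1). Of 14 type I interferon genes 6 were tested, with 0 higher and 1 lower without overlap. No gene of these 3 lists was called by limma. At a limma unadjusted p under 0.05 the NF-kappa-B list had 3 higher and 1 lower. The interferon-gamma list had 3 higher and 2 lower, and the type I list 0. Over all genes tested the shares were 5.06% higher and 3.84% lower.

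Immediate-early genes, which switch on within minutes of a stimulus, mostly lay higher on the Lin28A Tg arrays where they were tested. Of 19 listed, 13 were tested and 11 were higher without overlap, 0 were lower, and their median log2 fold change was 0.91. Among all genes tested, 21.8% lay higher and 16.7% lay lower without overlap. The summed intensity of the 13 above the background mode was 13123 and 9156 in Lin28A Tg muscle, against 1840 and 4606 in WT muscle. The order of the arrays was the same as for Cxcl1, which was chosen for its rise. Within WT the sum differed widely, whereas Cxcl1 was at 125 and 138.1. Fos was at 2826 and 1056 in Lin28A Tg and 140.7 and 541.6 in WT muscle, so that WT replicate 1 was the lowest. Without that array the log2 fold change of Fos was 1.67, and the list's median was 0.53. With all 4 arrays the value for Fos was 2.65 (SE 0.82, adjusted p = 0.541 with limma). Without WT replicate 2 the median was 1.40. The part of immediate-early gene activity in the Cxcl1 difference was not tested.

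Neutrophil and lymphocyte markers were mostly at background, whereas most macrophage markers were above it. Of 12 neutrophil markers, 10 were in the table, 7 of them were below background on all 4 arrays, Csf3r and S100a9 among them, and 2 were tested. S100a8 was at 112.2 and 94.84 in Lin28A Tg and 93.9 and 103.5 in WT muscle, and Mmp9 was at 105.2 and 110.3 in Lin28A Tg and 119.8 and 101.6 in WT muscle. The groups overlapped for both, and their summed intensity above the background mode was 35.23 to 47.52 in Lin28A Tg and 35.27 to 43.83 in WT muscle. Of 14 macrophage markers, 10 were tested, 3 were higher and 0 lower without overlap, with a median log2 fold change of 0.03. Of the 10, 6 had a positive and 4 a negative log2 fold change. Their summed intensity was 2100 to 2404 in Lin28A Tg and 1772 to 2061 in WT muscle, narrowly without overlap. Lyz2, the brightest of them, overlapped between the groups, at 988.3 and 1258 in Lin28A Tg and 860.6 and 1095 in WT muscle. C1qb, a complement gene of macrophages, was at 527.8 and 509.6 in Lin28A Tg and 406.4 and 405.2 in WT muscle (log2 fold change 0.35, SE 0.06, adjusted p = 0.486 with limma). The related genes C1qa and C1qc overlapped between the groups, with log2 fold changes of 0.05 and 0.01. The part of macrophages in the chemokine values was not tested. Of 12 eosinophil and mast cell markers 5 were tested, with 2 higher without overlap, and Ccr3, Prg2 and Epx were below background on all 4 arrays. Of 13 T, NK and B cell markers, 0 were tested. Of 10 fibroblast markers 3 were higher and 0 lower without overlap, and of 10 endothelial markers 3 were higher and 1 lower. The summed intensities of both lists overlapped between the groups. They were 9517 and 8891 in Lin28A Tg and 9717 and 7866 in WT muscle for fibroblast markers. For endothelial markers they were 757.3 and 747.1 in Lin28A Tg and 539.1 and 772.8 in WT muscle. Of 8 erythroid markers 4 were tested and 0 separated the groups. None of these markers was called by limma. For comparison with these counts, 21.8% of all genes tested lay higher and 16.7% lay lower without overlap.

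The genes whose pattern over the 4 arrays was most like that of Cxcl1 were not chemokines. Likeness was the Euclidean distance between log2 values centred on each gene's mean, over the 4 arrays, among 134 other genes with a range of at least 1 log2 unit. The closest was Sln, which encodes sarcolipin, an inhibitor of the muscle calcium pump, at a distance of 0.13. It was at 684.3 and 444.3 in Lin28A Tg muscle, against 202.4 and 203.4 in WT muscle (log2 fold change 1.44, SE 0.22). The next 5 were the nucleosome-binding protein gene Hmgn3 at a distance of 0.47, the phosphatase gene Dusp1 at 0.50, the matrix protein gene Spon2 at 0.50, the mRNA-decay factor gene Zfp36 at 0.54 and the collagen gene Col5a1 at 0.58. Zfp36 and Dusp1 were both on the list of immediate-early genes. Zfp36 was at 1150 and 603 in Lin28A Tg and 212.5 and 349.2 in WT muscle. Dusp1 was at 3416 and 2831 in Lin28A Tg and 947.5 and 1644 in WT muscle. Likeness over 4 arrays is a description: a gene with a group difference of similar size comes close by this measure.

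**Figure D5:**
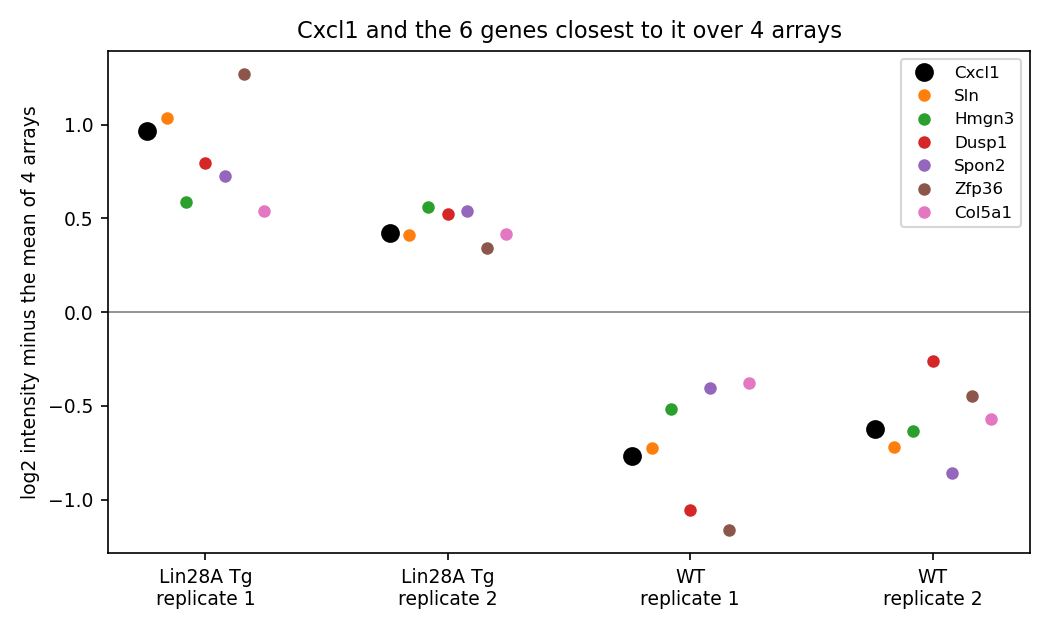
log2 intensity minus each gene's mean over the 4 arrays for Cxcl1 (large black points) and the 6 genes closest to it, with the Lin28A Tg arrays left of the WT arrays. Sln lies close to Cxcl1 on every array, and the other 5 lie farther from it.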

How the data were processed

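Total RNA of mouse quadriceps was extracted with Trizol, treated with DNase, labelled as biotin cRNA and hybridised to Illumina Ref-8 bead arrays, per the labels' protocols. The deposited table gives each gene symbol a linear intensity per array. The median spread at a given rank across arrays was 0.0916% and the lowest value 72.8, so the authors had normalized between arrays and had not subtracted background. Their software is not given in the sources used here. Another deposited table was left out because the names of its 8 value columns match no sample label. Without its detection p-values, background was the mode of all log2 values, 84.93, and the threshold the mode plus 1.645 SD (SD 0.0536 on the log2 scale).

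Symbols were updated through RefSeq names: of 18091 rows 14090 were current, 3066 older names, 50 ambiguous and 885 unmatched. The row with the highest mean was kept per symbol, leaving 17904 genes. The 8 chemokine genes were matched by their names in the table. Lin28A Tg was compared with WT on log2 intensity with limma 3.58.1 (lmFit, eBayes) in R 4.3.3, without covariates, at an adjusted p under 0.05. The fit was tested on simulated data. Python 3.11.15 with pandas 2.3.3 was used for the rest. The members and lists were chosen with earlier results of these data known. Lists are described by counts, with no test of their own. All 8 members are named. Of each other list, up to 4 genes were picked by the largest difference, genes without overlap first. Not all of these are named, and of some lists no gene is named. Some genes outside that pick are also named, such as Tnf, Cxcl2, C1qa and C1qc. The number of arrays limits the precision.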

Additional observations from a re-analysis of the deposited data

How the results depend on the processing

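Alternatives were normexp with offsets of 16 and 50, a pseudocount of 16, no filter or a filter of 94.94 on all 4 arrays, quantile normalization again, median centring, a robust variance trend, a replicate block, every row kept, an adjusted p under 0.10 and each array left out in turn. The 5 tested chemokine genes kept their direction under all of them, and no member other than Cxcl1, which was not tested, was called under any; Cxcl14 ran from an adjusted p of 0.28 to 0.931. The number of genes called was 0 except when an array was left out, where it ran from 0 to 19, the 19 being without WT replicate 2. With the replicate block it was 0; the deviations of same-numbered arrays correlated at 0.037, so the numbers are not shown to pair the samples. With 1 array left out, directions turned for 4 genes: Ackr1 ran from -0.01 (without Lin28A Tg replicate 1) to 0.27, Ackr2 from -0.06 (without WT replicate 2; -0.00062 without Lin28A Tg replicate 1) to 0.08, S100a8 from -0.06 (without Lin28A Tg replicate 1; -0.01 without WT replicate 1) to 0.19, and Mmp9 from -0.15 to 0.08 (without WT replicate 1). The causes were not tested. The median of the immediate-early genes with 1 array left out was added after seeing the data and ran from 0.53 to 1.40. Chemokine genes without overlap numbered 3 higher and 2 lower under normexp and quantile normalization again, and 2 higher and 2 lower under median centring, where Ccl11 overlapped. The nearness of Cxcl9, Cxcl10, Ccl2 and Ccl7 to background limits what can be seen of them.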
